A study of Mus musculus with 6 samples.

Results

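Chemokines are small secreted proteins that draw leukocytes along a concentration gradient by binding G-protein-coupled receptors. Activated CD8+ T cells release several of them together with their cytotoxic granules and cytokines, and these ligands recruit monocytes, dendritic cells and further T cells to the site of antigen recognition. RNA of 10 chemokine ligands, Ccl1, Ccl3, Ccl4, Ccl5, Ccl9, Ccl22, Xcl1, Cxcl9, Cxcl10 and Cxcl16, was compared between CD8+ T cells treated with GSK and with vehicle. The ligands were taken as the genes of the deposited count table whose symbol equals one of these names, and all 10 were found among its 16281 genes.

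The cells came from the spleens of OT1 mice on the C57BL/6 background, whose genotype is given as Tg(TcraTcrb)1100Mjb and whose T cells share a transgenic receptor for an ovalbumin peptide. There were 3 vehicle samples (Veh) and 3 samples given 0.5 μM GSK2879552 (GSK), an irreversible inhibitor of the histone demethylase LSD1. All 6 cultures were stimulated for 48 h with anti-CD3 at 2 μg/ml on the plate, anti-CD28 at 2 μg/ml in solution and IL-2 at 20 ng/ml, and were then kept in IL-2 for 3 days. The drug or vehicle was present in both phases. The methods name 3 separate mice, but the mouse behind each culture and the age of the mice are not given in the sources used here. The stimulus was antibody in vitro, without the ovalbumin peptide or a tumor, which limits what the cultures model.

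Total counts lay between 18288447 and 19846720 per sample, so 1 read corresponded to about the same share of every library. CPM values are counts scaled to library size after TMM correction, in the usual unit of that name. The labelled cell type was checked against markers. The 7 measured CD8 T cell markers summed to between 2928 and 3141 CPM in all samples, and Cd3e and Cd8a were among them. By the adjusted p alone, 3 of them were lower and 1 was higher in GSK, against 15.5% and 16.6% of all tested genes. These were Cd3g (-0.38 on the log2 scale, adjusted p = 6.0e-05, edgeR), Cd3e (-0.23, 0.0015), Cd3d (-0.16, 0.011) and Lck (0.13, 0.011). None of them differed by more than 1.5-fold. Marker sums of other cells that also make chemokines were far lower. The 3 CD4 T cell markers summed to 43.1 to 52.8 CPM in Veh and 39.1 to 44.8 CPM in GSK. Most of this came from Zbtb7b, and Cd4 itself had 9 to 34 reads per sample. The 10 markers of myeloid and dendritic cells summed to 11.98 to 19.5 CPM in Veh and 12.4 to 15.2 CPM in GSK, of which Cd68, which T cells also express, gave the largest part, and Adgre1, which marks macrophages, was at 0 in every GSK sample. The 6 B cell markers summed to 5.94 to 7.94 CPM in Veh and 5.63 to 6.88 CPM in GSK. The 4 NK cell markers summed to 1.58 to 2.39 CPM in Veh and 2.38 to 3.78 CPM in GSK. These NK cell sums leaned higher in GSK and overlapped narrowly. Most of their reads came from Klrb1c, with 43, 44 and 29 reads in Veh and 70, 46 and 59 in GSK. Klrb1c did not pass (0.54 on the log2 scale, adjusted p = 0.13, edgeR). Ncr1 was at 0 in every Veh sample and had 1 read in GSK replicate 1. The summed levels of the groups overlapped for the myeloid and for the B cell list, but single markers in them did not. Of the 4 tested myeloid and dendritic cell markers, Itgax, the CD11c chain that activated T cells can also carry, was called lower in GSK, and the other 3 did not pass. Itgax had 81, 46 and 63 reads in Veh and 27, 27 and 22 reads in GSK (-1.37 ± 0.27 on the log2 scale, SE, adjusted p = 0.0023, edgeR), and it was called with each sample left out. Among the B cell markers, Cd79b was lower in every GSK sample than in every Veh sample without passing (-0.41 on the log2 scale, adjusted p = 0.070, edgeR). The untested Cd79a, with 4 reads in Veh and 21 in GSK, and Ms4a1, with 4 and 18 reads, were higher in every GSK sample. Their part in the results was not tested, and in bulk RNA fewer cells of a type and less RNA per cell cannot be told apart.

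By receptor, the ligands fall into families. CCL3 and CCL5 bind CCR1. XCL1 binds XCR1, which is found on cross-presenting dendritic cells. CXCL9 and CXCL10 are interferon-induced ligands of CXCR3, CXCL16 is a membrane-bound ligand of CXCR6, CCL1 binds CCR8, CCL22 binds CCR4, and CCL9 binds CCR1.

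The genes lie in clusters. On GRCm38, Ccl5 (chr11:83525778-83530518), Ccl9 (chr11:83572917-83578636), Ccl3 (chr11:83647843-83649378) and Ccl4 (chr11:83648624-83664683) are neighbours on chromosome 11. Ccl1 (chr11:82176666-82179812) and Cxcl16 (chr11:70454389-70459984) lie elsewhere on that chromosome. Cxcl9 (chr5:92321331-92328079) and Cxcl10 (chr5:92346638-92348889) are neighbours on chromosome 5 with 18558 bases between them. Xcl1 (chr1:164931644-164935522) and Ccl22 (chr8:94745684-94751388) stand alone among the 10. The spans of Ccl3 and Ccl4 overlap in RefSeq, but they lie on opposite strands and share no exon base in GENCODE. The exons of Cxcl10 share 133 bases with Art3, those of Xcl1 98 bases with Gm20743 and those of Cxcl16 552 bases with Zmynd15, in each pair on the opposite strand. The libraries were stranded, but the strand setting of the counting is not given in the sources used here. Art3 held at most 4 reads in any sample and Zmynd15 at most 6.

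RefSeq promoter sequence was at hand for 7 of the 10 ligands, without Ccl4, Ccl5 and Cxcl16. The 250 bases before the start of 4 genes are printed, Ccl3 and Xcl1 because they had some of the larger differences among the ligands, and the neighbours Cxcl9 and Cxcl10 because they share a receptor and differed in level. Each is read 5′ to 3′ on the gene's own strand, which is the minus strand for all 4. They are Ccl3 chr11:83649379-83649628, Xcl1 chr1:164935523-164935772, Cxcl9 chr5:92328080-92328329 and Cxcl10 chr5:92348890-92349139 of GRCm38.p6. Capitals mark matches to the motifs described after them.
Ccl3: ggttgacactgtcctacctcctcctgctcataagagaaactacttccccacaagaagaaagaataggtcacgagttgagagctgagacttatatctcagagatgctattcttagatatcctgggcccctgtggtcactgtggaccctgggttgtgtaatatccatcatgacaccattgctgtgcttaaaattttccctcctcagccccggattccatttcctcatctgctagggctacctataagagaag
Xcl1: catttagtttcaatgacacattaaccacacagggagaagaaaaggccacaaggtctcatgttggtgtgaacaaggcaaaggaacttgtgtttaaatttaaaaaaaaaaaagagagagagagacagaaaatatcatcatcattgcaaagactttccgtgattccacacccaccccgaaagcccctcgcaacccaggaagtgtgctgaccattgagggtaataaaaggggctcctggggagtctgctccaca
Cxcl9: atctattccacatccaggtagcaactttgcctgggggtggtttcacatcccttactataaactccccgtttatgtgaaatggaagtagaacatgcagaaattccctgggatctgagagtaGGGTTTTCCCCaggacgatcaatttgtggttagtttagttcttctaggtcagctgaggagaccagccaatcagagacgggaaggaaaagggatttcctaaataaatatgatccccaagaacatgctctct
Cxcl10: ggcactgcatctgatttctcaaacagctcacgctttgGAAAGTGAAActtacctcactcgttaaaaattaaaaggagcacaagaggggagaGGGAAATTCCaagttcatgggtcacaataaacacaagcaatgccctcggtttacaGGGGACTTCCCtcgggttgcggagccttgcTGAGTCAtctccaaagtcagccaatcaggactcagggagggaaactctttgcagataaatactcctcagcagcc

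Matches were searched on both strands for 5 motifs, an NF-kB motif (GGG and CC with any 5 bases between them), an AP-1 motif (TGANTCA), an interferon-stimulated response element (GAAA and GAAA with any 2 bases between them), a GAS motif (TTCNNNGAA) and a T-box motif (AGGTGTGA). Cxcl10 held the interferon-stimulated response element beginning 213 bases before its start, the AP-1 motif beginning 74 bases before it, and 3 matches to the NF-kB motif, of which the pair beginning 104 and 103 bases before the start overlap each other. Cxcl9 held 2 overlapping matches to the NF-kB motif, beginning 130 and 129 bases before its start, and no match to the other 4. In Ccl3 and Xcl1 these letters did not occur. Of the 32851 promoter windows of this length, 45.8% held the NF-kB motif, 6.75% the AP-1 motif, 2.98% the interferon-stimulated response element, 7.02% the GAS motif and 1.12% the T-box motif. The NF-kB letters are thus common, and a match describes the sequence only.

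**Figure D1:**
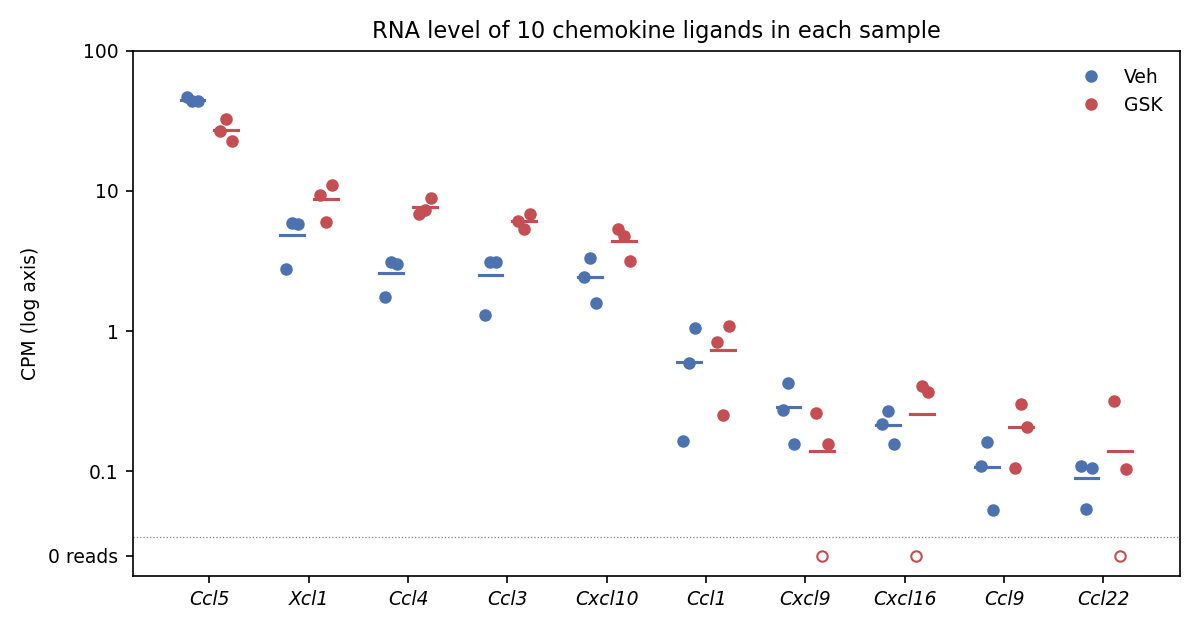
RNA level of each chemokine ligand in each of the 6 samples, in CPM on a log axis, with a bar for the group mean (n = 3) and open circles for samples with 0 reads. Ccl5 lies far above the other ligands in both groups, and Cxcl9, Cxcl16, Ccl9 and Ccl22 lie below 0.43 CPM in every sample.

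Levels of the ligands were compared per kilobase of exon. In Veh, Ccl5 was highest with 46.5 ± 1.61 CPM per kilobase (SD, n = 3), followed by Xcl1 with 9.24 ± 3.41, Ccl4 with 3.96 ± 1.15, Ccl3 with 3.27 ± 1.36, Cxcl10 with 1.09 ± 0.388 and Ccl1 with 0.254 ± 0.187 CPM per kilobase. The samples of Ccl4 and Ccl3 overlapped in this order, and those of Ccl1 overlapped those of Cxcl9, whose mean was 0.0949 CPM per kilobase. The means of Cxcl16, Ccl22 and Ccl9 were lower still, between 0.0353 and 0.0710 CPM per kilobase, with overlapping samples.

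In GSK the order of the leading 6 was the same on this scale, but the distances were shorter. Ccl5 stood at 28.6 ± 5.29 CPM per kilobase (SD, n = 3), Xcl1 at 16.7 ± 4.84, Ccl4 at 11.6 ± 1.62 and Ccl3 at 7.98 ± 0.990 CPM per kilobase. The samples of Xcl1 and Ccl4 overlapped, while those of Ccl4 and Ccl3 did not. Per kilobase of coding sequence instead of exon, the GSK mean of Ccl4 (27.4 CPM per kilobase) was above that of Xcl1 (25.3). The order of this pair thus depends on the length used, and so do the distances between ligands. In Veh, Ccl3 and Cxcl10 stood at 8.98 and 8.24 CPM per kilobase of coding sequence, against 3.27 and 1.09 per kilobase of exon.

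Of the 10 ligands, 6 had enough reads for the test across genes and 4 did not. A gene was called when edgeR's test gave an adjusted p (Benjamini-Hochberg) below 0.05 and the groups differed by more than 1.5-fold, which held for 6.32% of all 11698 tested genes. Ccl3, Ccl4 and Cxcl10 were called higher in GSK, against 2.22% of all tested genes. Ccl5 was called lower, against 4.09%. Xcl1 and Ccl1 did not pass. In Ccl3, Ccl4 and Xcl1 all GSK samples lay above all Veh samples, as in 23.7% of all tested genes, and in Ccl5 they lay below, as in 23.0%. Groups without overlap in either direction were thus seen in 4 of the 6 ligands and in 46.7% of all tested genes. Under the alternatives the share of genes called was 5.63% with DESeq2, 6.32% with RLE factors, 4.75% with no filter, 5.51% at a mean count of at least 50 and 5.98% with a replicate block. It was 5.52%, 6.24% and 5.46% without Veh replicates 1, 2 and 3, and 5.55%, 7.06% and 5.43% without GSK replicates 1, 2 and 3. These genes were picked with earlier results of the same data known, so the counts describe them and show no more.

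Ccl3 encodes MIP-1α, an attractant for monocytes and effector T cells. Its counts were 24, 58 and 59 in Veh replicates 1 to 3 and 116, 106 and 132 in GSK replicates 1 to 3, which are 1.30, 3.11 and 3.10 CPM against 6.09, 5.36 and 6.88 CPM. All GSK samples lay above all Veh samples, and Veh replicate 1 was the lowest by far. The fold change was 2.43, with a 95% interval from 1.63 to 3.62 (1.28 ± 0.26 on the log2 scale, SE, adjusted p = 0.0034 by edgeR). Without Veh replicate 1 the log2 fold change was 0.97 (adjusted p = 0.0050, edgeR), and it stayed past both thresholds with each sample left out.

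Ccl4 encodes MIP-1β, a close relative of MIP-1α that activated T cells secrete with it. It was counted 32, 58 and 57 times in Veh and 130, 144 and 170 times in GSK, or 1.74, 3.11 and 2.99 CPM against 6.82, 7.28 and 8.86 CPM. The groups were clearly apart, and Veh replicate 1 was again the lowest sample. Ccl4 had the largest fold change of the tested ligands, 2.92, with a 95% interval from 2.13 to 4.01 (1.55 ± 0.21 on the log2 scale, SE, adjusted p = 2.0e-04, edgeR). With each sample left out, the log2 fold change ran from 1.33 to 1.69. The ratio of Ccl4 to Ccl3 counts within a sample was 0.966 to 1.33 in Veh and 1.12 to 1.36 in GSK, so the ratios of the groups overlapped.

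Ccl5 encodes RANTES, which memory CD8+ T cells store as RNA and release quickly on restimulation. Its counts were 854, 815 and 834 in Veh and 511, 648 and 435 in GSK, the most of any of the 10 ligands. In CPM the Veh samples were at 46.4, 43.7 and 43.8 and the GSK samples at 26.8, 32.8 and 22.7. All GSK samples lay below all Veh samples, the Veh samples were tight, and the GSK samples were spread, with replicate 2 the highest and replicate 3 the lowest. Mean levels were 44.6 ± 1.55 CPM (SD, n = 3) and 27.4 ± 5.08 CPM (SD, n = 3), and Ccl5 was 1.63-fold lower in GSK. On the log2 scale the change was -0.70 with a 95% interval from -0.95 to -0.46 (adjusted p = 9.7e-04, edgeR). The interval includes changes below the fold threshold. Without GSK replicate 3 the log2 fold change was -0.58, just short of 1.5-fold, with an adjusted p of 2.5e-04 (edgeR). Ccl5 thus changed in the opposite direction to Ccl3 and Ccl4.

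**Figure D2:**
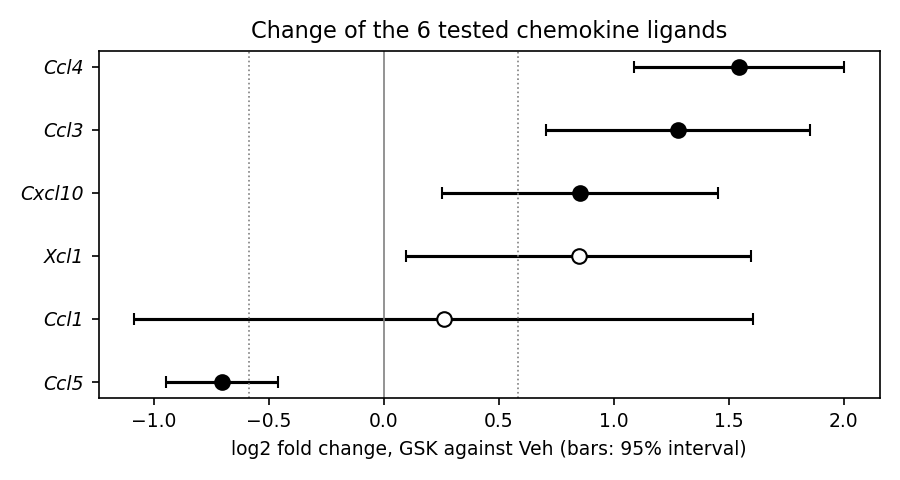
Log2 fold change of GSK against Veh for the 6 tested ligands (points) with 95% intervals (bars), filled where the gene passed both thresholds. Dotted lines mark a fold change of 1.5. Ccl4 and Ccl3 lie to the right at 1.55 and 1.28, Ccl5 lies to the left at -0.70, and the interval of Ccl1 spans 0.

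Xcl1 encodes lymphotactin. Its counts were 51, 110 and 111 in Veh and 177, 118 and 210 in GSK, or 2.77, 5.90 and 5.83 CPM against 9.29, 5.97 and 10.9 CPM. All GSK samples lay above all Veh samples, but GSK replicate 2 exceeded Veh replicates 2 and 3 by very little. The ratio of the groups was 1.80-fold, with a 95% interval from 1.07 to 3.03, which did not pass (adjusted p = 0.082, edgeR). Without GSK replicate 2 the log2 fold change was 1.06 and passed (adjusted p = 0.019, edgeR), and without GSK replicate 3 the adjusted p was 0.20. DESeq2 called it (adjusted p = 0.0080), and the fit with replicate number as a block did not (adjusted p = 0.058).

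The ligands of CXCR3 were a pair of unequal level. Cxcl10, or IP-10, was counted 45, 62 and 30 times in Veh and 102, 94 and 61 times in GSK, which are 2.45, 3.32 and 1.58 CPM against 5.35, 4.76 and 3.18 CPM. The groups overlapped, since GSK replicate 3 lay just below Veh replicate 2, and replicate 3 was the lowest sample of each group. The fold change was 1.81, with a 95% interval from 1.19 to 2.74 (0.85 ± 0.28 on the log2 scale, SE, adjusted p = 0.033, edgeR). The call was lost without Veh replicate 1 (adjusted p = 0.086, edgeR), without Veh replicate 3 (0.11), without GSK replicate 1 (0.14) and without GSK replicate 2 (0.064).

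Cxcl9, or MIG, was close to the limit of the sequencing and was not tested. It had 5, 8 and 3 reads in Veh and 5, 0 and 3 reads in GSK. The summed counts were 16 in Veh, with an exact Poisson 95% interval from 9.15 to 26.0, and 8 in GSK, with an interval from 3.45 to 15.8. These intervals cover counting error only and overlap. A count of 0 in GSK replicate 2 allows up to 0.152 CPM.

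Ccl1, a ligand of CCR8, had the widest spread of the tested ligands. Its counts were 3, 11 and 20 in Veh and 16, 5 and 21 in GSK, so each group held a low sample and a high sample and the groups overlapped. The interval of its fold change ran from 0.472 to 3.05 (adjusted p = 0.78, edgeR), which includes changes in either direction. The log2 fold change was 0.26, and it was -0.18 without Veh replicate 1 and -0.16 without GSK replicate 3.

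The remaining ligands were near the floor and were not tested. Cxcl16, which T cells, macrophages and dendritic cells carry on the surface, had 4, 5 and 3 reads in Veh and 0, 8 and 7 reads in GSK. Ccl9, mainly a product of myeloid cells, had 2, 3 and 1 reads in Veh and 2, 6 and 4 reads in GSK. Ccl22, a dendritic cell product that attracts regulatory T cells, had 2, 1 and 2 reads in Veh and 6, 0 and 2 reads in GSK. In none of these did the samples of the groups separate, and a 0 allows up to 0.157 CPM for Cxcl16 in GSK replicate 1 and up to 0.152 CPM for Ccl22 in GSK replicate 2.

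Ccl5 fell while Ccl3, Ccl4 and Cxcl10 rose and Xcl1 leaned higher without passing. The make-up of the ligand RNA thus shifted while its total stayed similar. Summed over the 10 ligands, Veh samples held 58.3 ± 2.57 CPM (SD, n = 3) and GSK samples 55.8 ± 1.33 CPM (SD, n = 3), and the samples overlapped. Ccl5 held 83.6%, 72.1% and 74.5% of the reads of the 10 ligands in Veh and 48.0%, 57.4% and 41.6% in GSK. The exact binomial 95% intervals were 69.3 to 74.7% for the lowest Veh sample and 54.5 to 60.3% for the highest GSK sample. They cover counting error within a sample only, not the spread between cultures. Ccl4 held 3.13 to 5.13% in Veh and 12.2 to 16.3% in GSK, Ccl3 2.35 to 5.27% and 9.39 to 12.6%, Xcl1 4.99 to 9.91% and 10.5 to 20.1%, and Cxcl10 2.68 to 5.48% and 5.84 to 9.58%. The groups did not overlap in any of these 5 shares, which are bound to one another since they sum to the whole. For each Ccl3 read there were 14.1 to 35.6 Ccl5 reads in Veh and 3.30 to 6.11 in GSK. These shares and ratios are given as a description, without a test.

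**Figure D3:**
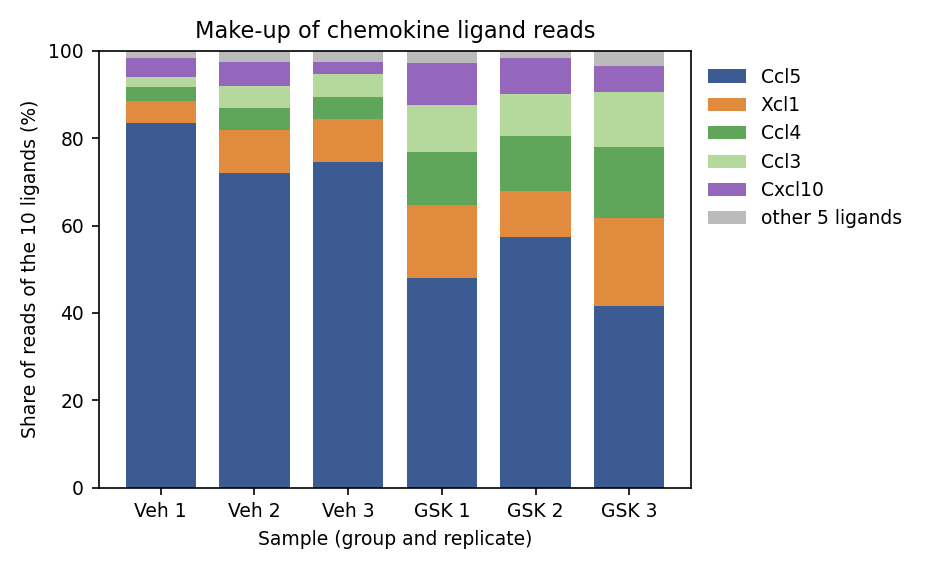
Share of each ligand in the reads of all 10 ligands, in percent, for each sample, with the 5 least counted ligands combined. The Ccl5 part covers 72.1 to 83.6% of the Veh bars and 41.6 to 57.4% of the GSK bars, and the parts of Xcl1, Ccl4, Ccl3 and Cxcl10 are each larger in every GSK sample.

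The samples also differed within groups in a shared way. Veh replicate 1 was the lowest Veh sample for Ccl1, Ccl3, Ccl4 and Xcl1, and the highest for Ccl5. GSK replicate 2 was the lowest GSK sample for Ccl1, Ccl3 and Xcl1 and the highest for Ccl5, while GSK replicate 3 was the highest for Ccl1, Ccl3, Ccl4 and Xcl1 and the lowest for Ccl5. Cxcl10 followed neither order. The summed markers of CD8 T cells, of B cells and of myeloid and dendritic cells were each also highest in Veh replicate 1 among the Veh samples. Among the GSK samples all of these sums were highest in GSK replicate 2. Other marker sums went differently. The NK cell sum was highest in Veh replicate 1 but lowest in GSK replicate 2, and the CD4 T cell sum was highest in replicate 3 of each group. The part of other cells in the orders of the ligands was not tested.

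The neighbours on chromosome 11 moved in different directions. Between Ccl5 and Ccl3 lie 117324 bases, in which Ccl9 and Ccl6 are found. Within 100000 bases of the span from Ccl5 to Ccl4, RefSeq lists 25 genes, of which 8 were tested. Heatr9, the next gene with values beside Ccl5, was at 3.21, 3.32 and 3.68 CPM in Veh and 1.21, 2.63 and 0.834 CPM in GSK. It fell in GSK (-1.12 ± 0.34 on the log2 scale, SE, adjusted p = 0.025, edgeR). The GSK samples of Heatr9 stood in the same order as those of Ccl5, but its Veh samples did not. Veh replicate 1 was the lowest Veh sample for Heatr9 and the highest for Ccl5. The call of Heatr9 was lost when any sample other than GSK replicate 2 was left out, with adjusted p-values of up to 0.10 (edgeR). Predicted gene Gm32650 spans both Heatr9 and Ccl5 and has no values here. On the log2 scale Ccl6 differed by -0.05 ± 0.43 (SE, adjusted p = 0.94), Taf15 by -0.07 ± 0.041 (adjusted p = 0.20) and Heatr6 by 0.02 ± 0.062 (adjusted p = 0.81). Next to Cxcl9 on chromosome 5, Sdad1 was higher by 0.26 on the log2 scale (adjusted p = 0.0022, edgeR), short of the fold threshold. The differences called in this window were thus those of Heatr9, Ccl5, Ccl3 and Ccl4.

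**Figure D4:**
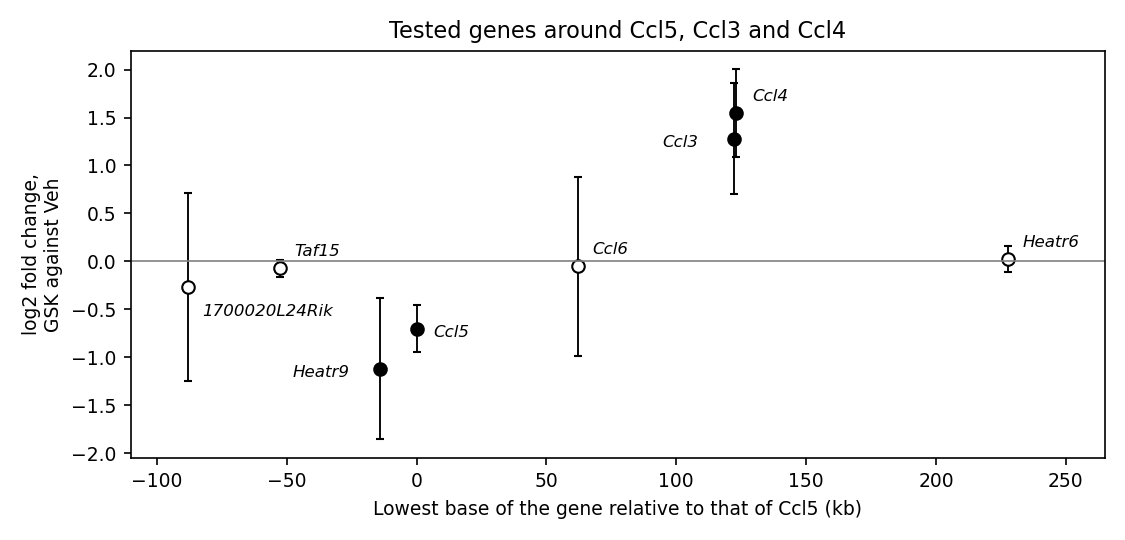
Log2 fold change of GSK against Veh (points) with 95% intervals (bars) for the 8 tested genes around the chromosome 11 chemokine cluster, placed by distance of their lowest base from that of Ccl5 in kilobases, filled where called. Heatr9 and Ccl5 lie below 0 and Ccl3 and Ccl4 above it, with Ccl6 near 0 between them.

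Of the 28 further chemokine ligand genes on a fixed list, 15 were in the table and 3, Ccl6, Ccl25 and Ccl27a, were tested. None passed in edgeR, at an adjusted or at an unadjusted p under 0.05, or in DESeq2. Ccl25 was the most counted with 75 to 113 reads per sample, and the other 12 had at most 14 reads in any sample. Ccl27a has close copies in the mouse genome, so its counts are uncertain.

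Receptors of the ligands changed in both directions. They were read by the adjusted p without the fold threshold, which 32.1% of all tested genes passed, 16.6% upward and 15.5% downward. Ccr4, the receptor of CCL22, rose from 24.6, 29.2 and 21.2 CPM to 45.9, 34.5 and 36.6 CPM (0.64 on the log2 scale, adjusted p = 0.0082, edgeR), and passed the fold threshold too. Cxcr3, the receptor of CXCL9 and CXCL10, fell from 87.7, 78.2 and 83.4 CPM to 50.1, 67.2 and 53.7 CPM (-0.54 ± 0.10 on the log2 scale, SE, adjusted p = 0.0040, edgeR). Both stayed past the adjusted p with each sample left out, but Ccr4 fell short of 1.5-fold without Veh replicate 3 (0.54 on the log2 scale) and without GSK replicate 1 (0.51). Cxcr6, the receptor of CXCL16, missed the threshold (-0.18 on the log2 scale, adjusted p = 0.098, edgeR, and 0.033 with the replicate block), as did Ccr1 with 11 to 18 reads per sample (-0.43 on the log2 scale, adjusted p = 0.37). Ccr8 had at most 6 reads and Ccr3 at most 14.

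Of 8 genes that shed, cleave or store the ligands, 1 rose and 1 fell by the adjusted p, against 16.6% and 15.5% of all tested genes, so their share was no higher than among all genes. Adam10 and Adam17, proteases that release CXCL16 from the membrane, had log2 fold changes of 0.05 (95% interval -0.04 to 0.13) and 0.02 (-0.09 to 0.12). Dpp4, which trims the ends of CCL5, CXCL9 and CXCL10, had one of -0.16 (adjusted p = 0.077, edgeR). Srgn, the proteoglycan core of secretory granules that holds CCL3, CCL4 and CCL5, fell by 0.25 on the log2 scale (adjusted p = 0.0026, edgeR). Chst11, which sulfates chondroitin chains, rose by 0.22 on the log2 scale (adjusted p = 0.037, edgeR), a difference lost with DESeq2 (0.057) and without Veh replicate 1, Veh replicate 3, GSK replicate 2 or GSK replicate 3 (up to 0.16, edgeR).

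Cxcl9 and Cxcl10 are known targets of interferon-γ. Of 16 genes of that pathway, 6 passed the adjusted p upward and 3 downward, against 16.6% and 15.5% of all tested genes, with a median log2 fold change of 0.12 against -0.0039 over all tested genes. With 1 sample left out, 6 to 10 of the pathway genes passed in either direction, against 9 with all samples. Ifng itself rose from 2.39, 6.33 and 5.51 CPM in Veh to 12.8, 10.4 and 14.2 CPM in GSK, with Veh replicate 1 the lowest sample as for Ccl3 (log2 fold change 1.39, adjusted p = 0.014, edgeR, and 0.051 without GSK replicate 3). Both receptor chains fell, Ifngr1 with a log2 fold change of -0.42 (adjusted p = 3.3e-05, edgeR) and Ifngr2 with one of -0.65 (adjusted p = 6.0e-04). The feedback inhibitor Socs1 (0.36, adjusted p = 0.0024) and the induced GTPase Gbp4 (0.30, adjusted p = 9.6e-04) rose. Other genes of the list were near 0 and did not pass, among them Gbp2 (0.01, adjusted p = 0.91, edgeR), Igtp (0.04, 0.58) and Irf1 (0.02, 0.86).

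Ccl3, Ccl4 and Xcl1 are induced by T cell receptor signals through NFAT, NF-kB and EGR factors. A list of 19 genes held such factors, feedback genes, AP-1 genes and Irf4. Of these, 18 were tested, of which 5 passed the adjusted p upward and 5 downward, against 16.6% and 15.5% of all tested genes. Without Veh replicate 1, 6 passed. Irf4 had a log2 fold change of 0.55 and Nfkbiz one of 0.71, and both rose (adjusted p = 3.3e-05 and 8.6e-05, edgeR). Nfkb1 (-0.29, adjusted p = 8.6e-05) and the inhibitor Tnfaip3 (-0.74, adjusted p = 5.0e-05) fell. Of the NFAT and EGR genes, Nfatc2 (0.28, adjusted p = 0.0013, edgeR) and Egr2 (0.92, 0.039) rose and Nfatc3 (-0.14, 0.028) fell. Egr2 and Nfatc3 no longer passed with some samples left out (adjusted p of up to 0.14, edgeR) or with the replicate block (0.052 and 0.067). Egr2 also missed the threshold with DESeq2 (adjusted p = 0.069). Nfatc1 (-0.10, adjusted p = 0.16, edgeR), Egr3 (0.32, 0.69) and Egr1 (1.33, 0.093) did not pass, but Egr1 did with DESeq2 (0.028) and with the replicate block (9.1e-04, edgeR). Among 11 cytokine and granule genes that are secreted with the ligands, 10 were tested, of which 6 rose and Srgn fell by the adjusted p, against 16.6% and 15.5% of all tested genes. Il10 rose by 2.16, Tnf by 1.17 and Prf1 by 1.09 on the log2 scale. Gzmb was among the 6 and was lost without Veh replicate 1, Veh replicate 3 or GSK replicate 1 (adjusted p of up to 0.067, edgeR). Gzma, on the same list, leaned lower in GSK with overlapping groups and did not pass (-0.85 on the log2 scale, adjusted p = 0.15, edgeR, and 0.0039 with the replicate block). The median of the 10 tested genes was 0.86, against -0.0039 over all tested genes.

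**Figure D5:**
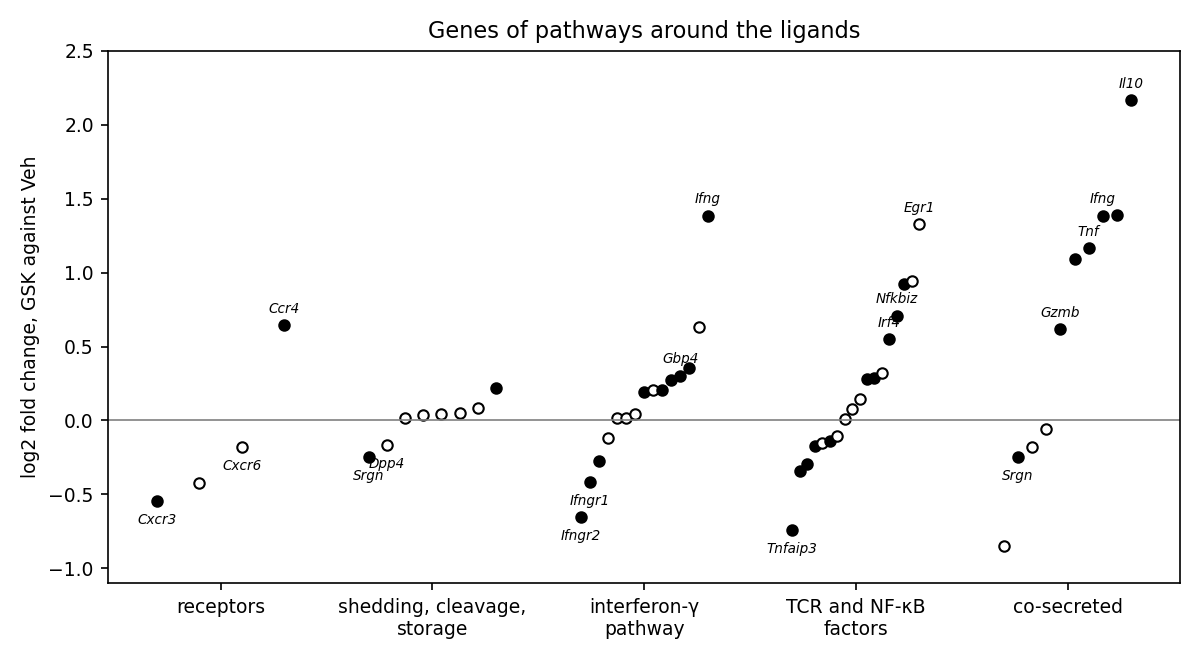
Log2 fold change of GSK against Veh for genes of 5 fixed lists, filled where the adjusted p was under 0.05, with some genes labelled. Ccr4 lies above 0 and Cxcr3 below it, the shedding and storage genes lie between -0.25 and 0.22, and most co-secreted genes lie above 0.5.

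For each called ligand, the tested genes with the most similar log2 CPM over the 6 samples were sought among 11697 candidates, as a description. Ccl3 was most like Ifng (Pearson's r = 0.997), Dhcr7 (0.994) and Osbpl11 (0.993). Ccl4 was most like Psmc3ip (0.999), Pitpnm2 (0.998) and Serpine2 (0.998). Ccl5 was most like Grn and Rap1gap2 (each 0.998). Cxcl10 was most like Irgm1 (0.993), Tmem185b (0.993) and Bst2 (0.987), of which Irgm1 and Bst2 are known interferon-induced genes. These genes were picked for the highest r, and they share the 6 libraries and the difference between the groups with the ligand.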

How the data were processed

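Polyadenylated RNA of 6 cultures was sequenced from stranded libraries. Per the submitters' processing notes and the methods, the authors trimmed reads with Trimmomatic, mapped them to GRCm38 with HISAT2 (version 2.1.0) and deposited raw counts per gene from HTSeq (version 0.11.2), without normalization. The annotation release is not given in the sources used here. Columns were matched to samples by the sample descriptions, and groups come from the titles.

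The comparison ran in edgeR (version 4.0.16, R version 4.3.3). Genes with few reads were removed by filterByExpr, libraries were scaled by TMM, a robust quasi-likelihood model was fitted, and p-values were adjusted by Benjamini-Hochberg across every tested gene. Standard errors were derived from the F statistic. A call needed an adjusted p below 0.05 together with more than 1.5-fold. Alternatives were DESeq2 (version 1.42.0), RLE factors, no filter, a mean count of at least 50, a replicate block, no fold threshold, and omission of 1 sample at a time. The script was tested on simulated counts. Exon and coding lengths came from GENCODE M21, positions and promoters from RefSeq on GRCm38.p6. All 10 Entrez numbers matched.

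Named were all 10 ligands, the tested receptors and proteases of the ligands, up to 4 genes of smallest p per other list, direct neighbours and up to 3 most similar genes. Some genes that this rule covers are not reported here. Gzmb, Gzma, Gbp2, Igtp, Irf1, Nfatc1, Nfatc2, Nfatc3, Egr1, Egr2, Egr3, the marker genes and the other genes of the chromosome 11 window were named after their values were seen. The members and lists were chosen with earlier results of these data known. The within-group pairs of samples had a chi-square per degree of freedom of 3.95 to 9.02, so no library was a duplicate within sampling noise. Intervals of counts are exact (Poisson or Clopper-Pearson), and a count of 0 allows up to 3 counts.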

Additional observations from a re-analysis of the deposited data

How the results depend on the processing

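Of 65 log2 fold changes of the 6 tested ligands under the alternatives, 56 kept direction and side of both thresholds, 5 lost the call (Cxcl10 without 1 of 4 samples and Ccl5 without GSK replicate 3), 2 gained it (Xcl1 with DESeq2 and without GSK replicate 2), and 2 changed sign (Ccl1 at -0.18 without Veh replicate 1 and -0.16 without GSK replicate 3). Over samples left out, Ccl1 ran from -0.18 to 0.93. The cause was not tested. With each sample left out, 2 to 3 ligands were called higher and 0 to 1 lower. Over all genes, 224 to 291 were called higher and 403 to 547 lower, against 260 and 479 with all samples, and the adjusted p alone gave 1941 and 1819. Among shedding and storage genes 1 to 2 passed with a sample left out and 1 with DESeq2, against 2, and among T cell receptor and NF-kB factors 6 to 10 passed, against 10. With the replicate block, 3 ligands were called higher and 1 lower, as without it, so it changed neither count. The deviations of same-numbered samples correlated at -0.05, -0.08 and 0.16 across genes, and 2 of 6 samples correlated best with their own number, so the numbers were not taken to pair the samples. At this depth Cxcl9, Cxcl16, Ccl9 and Ccl22 could not be tested. Groups of 3 were too small for a test of single deviating samples.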
